A study of Homo sapiens with 6 samples.

Results

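Tbx2, Tbx3, Tbx4 and Tbx5 form a subfamily of the T-box transcription factors, proteins that bind DNA through a conserved T-box domain. The 4 genes were taken by gene ID from the deposited tables, ENSMUSG00000000093 for Tbx2, ENSMUSG00000018604 for Tbx3, ENSMUSG00000000094 for Tbx4 and ENSMUSG00000018263 for Tbx5, out of 54532 IDs in all. They were selected on their measured levels in NC, sh1 and sh4 in these same libraries, by no stated threshold. All 3 comparisons between the groups therefore count as used in the choice, and levels and fold changes are given as a description. Whether a gene passed the call rule of the whole table is stated beside the share of all IDs that did, and supports nothing. The symbols are Ensembl's mouse names for these IDs and do not stand in the files.

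RNA was sequenced from groups called NC, sh1 and sh4 in the labels, with 2 libraries per group and 6 in all. The labels give the cells as A549, a widely used line from a human lung adenocarcinoma, and set knockdown cells against NC, with DSTY in the series title as the target. They state neither what NC, sh1 and sh4 stand for nor the vector, the time after knockdown, any added agent, or whether a group is 1 clone. That both sh groups are knockdowns of this target is therefore assumed. Nothing says that the libraries of a group came from separate cultures, so the spread between them may be technical.

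The IDs and the labels disagree on the organism. Of the 54532 IDs, 54532 carry Ensembl's mouse prefix and 0 the human one, and 0 matched the human name tables used here. The gene lengths behind the values were recovered from the values themselves and came to 3626 bp for Tbx2, 6624 bp for Tbx3, 3401 bp for Tbx4 and 4675 bp for Tbx5. The exons of the human genes of the same names cover 6029, 5950, 3996 and 4363 bases, in that order, in GENCODE release 29 on GRCh38. None of the 4 recovered lengths equals its human counterpart, though those of Tbx4 and Tbx5 rest on 1 read each. Names and lengths describe the IDs and gene models that were counted, so neither comparison with human tables tells the organism of the RNA. Recovered reads, 14999786 to 18011798 per library, all lay on IDs with the mouse prefix. Of these IDs, 11826 to 11972 per library reached 1 FPKM. The organism of the RNA was not tested and is unresolved here, and NC, sh1 and sh4 mean the libraries that carry these labels. The level of the targeted gene and the markers of lung epithelium and of other cell types were not analysed here, since no ID could be given a symbol from the tables used.

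In development, Tbx2 and Tbx3 act mainly as transcriptional repressors, and Tbx4 and Tbx5 mainly as activators. The genes sit in linked pairs, Tbx2 beside Tbx4 and Tbx3 beside Tbx5, a layout that goes back to the duplication of an ancestral pair. In the embryonic lung the subfamily is best known from the mesenchyme, where Tbx4 and Tbx5 act in branching with Fgf10 and where Tbx2 and Tbx3 keep cells dividing by holding down cell cycle inhibitors. Tbx2 and Tbx3 are also known for blocking senescence through repression of the p19Arf transcript and of p21, and both are raised in several carcinomas.

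The subfamily split into an abundant gene, a gene that was high in 1 group only, and a pair of genes at or next to 0. Tbx3 was at 12.5 FPKM or more in each of the 6 libraries, where FPKM is fragments per kilobase of gene scaled to depth. Tbx2 stood below 0.2 FPKM in all NC and sh1 libraries and above 3 FPKM in both sh4 libraries. Tbx4 and Tbx5 were each represented by 1 read in 1 library and by none in the other 5. Recovered reads totalled 14999786 to 18011798 per library. In the 4 genes, 1 read was worth between 0.00817 FPKM (Tbx3 in sh4 replicate 1) and 0.0192 FPKM (Tbx4 in NC replicate 2).

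**Figure D1:**
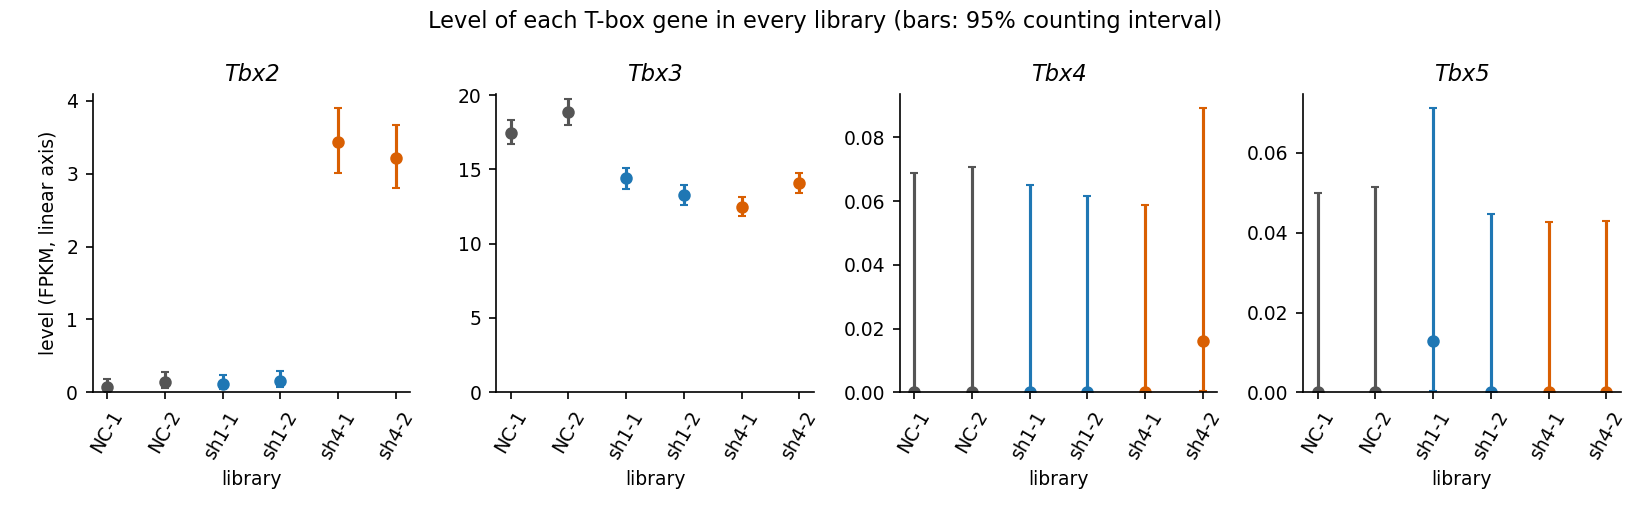
Level of Tbx2, Tbx3, Tbx4 and Tbx5 in FPKM (vertical axis, linear, its own scale in each panel) in the 6 libraries (horizontal axis; NC grey, sh1 blue, sh4 orange). Points are single libraries and bars the exact 95% Poisson interval of the recovered reads, which covers counting error only. Tbx2 lies at 3.43 and 3.22 FPKM in sh4 and below 0.2 elsewhere, and Tbx3 is highest in the NC libraries.

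Tbx2, a repressor known for its part in heart chamber patterning and in the bypass of senescence, was near the detection limit in 2 of the 3 groups. Its level was 0.0699 FPKM in NC replicate 1 and 0.144 in NC replicate 2, from 4 and 8 reads. In sh1 it was 0.116 and 0.157 FPKM, from 7 and 10 reads. In sh4 it was 3.43 and 3.22 FPKM, from 230 and 214 reads. The NC and sh1 libraries overlapped, and both sh4 libraries lay above every other library. The exact 95% Poisson intervals kept the same order, since the highest upper bound among NC and sh1 was 0.288 FPKM (sh1 replicate 2) and the lower bounds in sh4 were 3.0 and 2.8. Replicates of a group differed by more than counting error over the IDs with enough reads to compare. The mean chi-square per ID was 4.31 (NC), 2.43 (sh1) and 4.14 (sh4), where counting error alone gives about 1. Counting intervals, here and below, can therefore be too narrow.

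Group means of Tbx2 were 0.107 ± 0.052 FPKM (NC), 0.136 ± 0.029 FPKM (sh1) and 3.33 ± 0.15 FPKM (sh4; SD, n = 2 each). Mean FPKM was thus 31.1 times as high in sh4 as in NC. This ratio rested on the few NC reads, and was 47.6 without NC replicate 2 and 23.1 without NC replicate 1. The ratio of pooled reads, corrected for depth, was 31.3 with an exact 95% interval of 17.7 to 61.0, which covers counting error only and is wide because NC held 12 reads in all. Against sh1, which held 17 reads, the ratio of mean FPKM was 24.4 and the interval for pooled reads ran from 15.0 to 42.2. Between sh1 and NC the pooled ratio was 1.28, with an interval from 0.578 to 2.95, so a change of this gene in sh1 was not detectable at this depth. In bulk RNA, more Tbx2 transcript in every cell and a larger share of cells holding it cannot be told apart. How the counting treated strand is not given in the sources used here, so transcripts antisense to a gene cannot be separated from it.

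On the scale of log2(FPKM + 1), which understates changes of low genes, the Tbx2 difference was 1.97 (SE 0.12) from NC to sh4, 0.04 (SE 0.12) from NC to sh1 and 1.93 (SE 0.12) from sh1 to sh4. Of the 12755 tested IDs, those that reached 1 FPKM in 2 or more libraries, 74 had a larger rise than Tbx2 from NC to sh4, and 49 had a larger rise from sh1 to sh4. With 0.1 in place of 1 added before the logarithm, the Tbx2 differences were 4.07 and 3.86, and 21 and 22 IDs had a larger rise. The comparisons of sh4 and sh1 with NC use the same 2 NC libraries, whereas sh4 against sh1 does not use them. Tbx2 entered the tested set only through the sh4 libraries, the group where it was high, so it had to differ there.

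The profile of Tbx2 was low in all libraries of 2 groups and present in both libraries of the third. Limits were set around its own values after these were seen, at most 0.2 FPKM in the 4 low libraries and at least 3 FPKM in the other 2, so Tbx2 passes them by construction. At these limits, the only ones run, 3 IDs had this profile with sh4 as the high group, Tbx2 included. With sh1 as the high group there were 3 such IDs and with NC there were 0. The reverse profile, at most 0.2 FPKM in 1 group and at least 3 FPKM in the other 4 libraries, was found for 1 ID with sh1 as the low group and for 0 with sh4 or NC. In rank, Tbx2 stood above 11.6% and 19.5% of the IDs above 0 in the NC libraries and above 16.9% and 20.8% in sh1. In sh4 it stood above 55.3% and 54.7%, just past the middle of the IDs above 0.

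**Figure D2:**
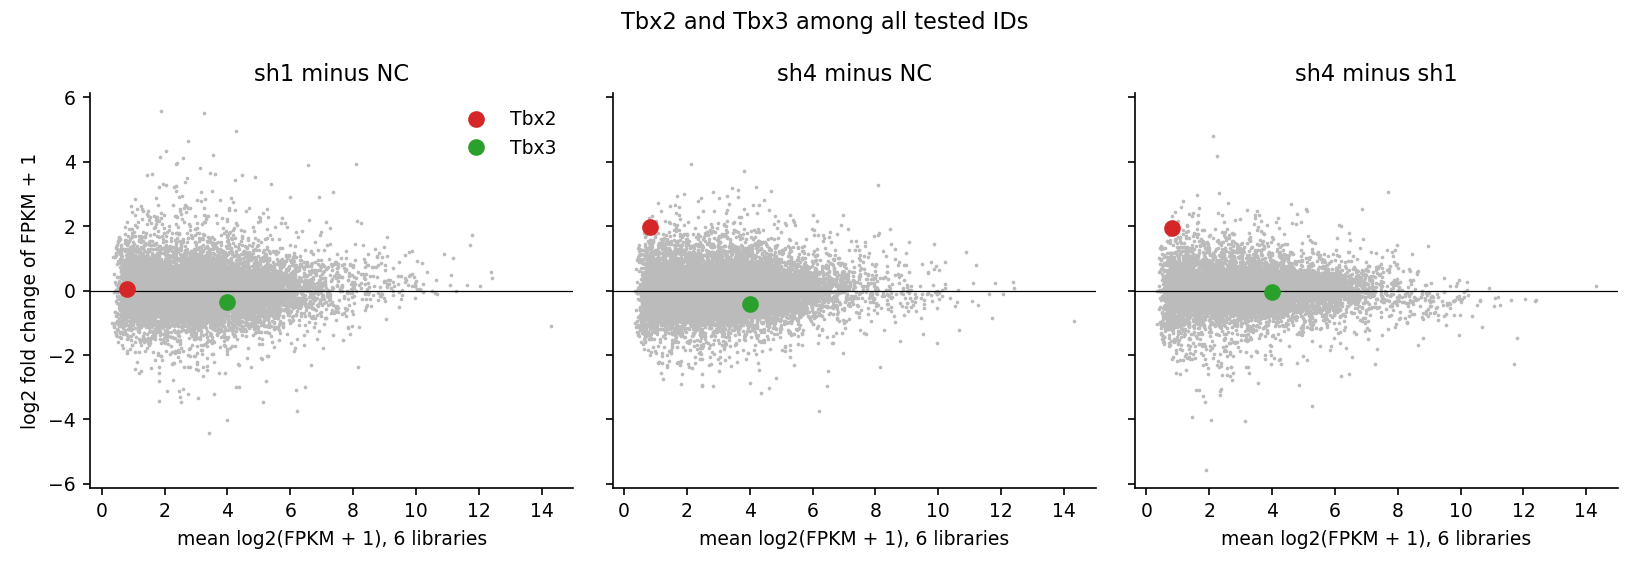
Log2 fold change of FPKM + 1 (vertical axis) against the mean log2(FPKM + 1) over 6 libraries (horizontal axis) for the 12755 tested IDs (grey), with Tbx2 in red and Tbx3 in green. Panels show sh1 minus NC, sh4 minus NC and sh4 minus sh1. Tbx2 lies at 0.04, 1.97 and 1.93, near the upper edge in the panels with sh4, while Tbx3 lies at -0.37, -0.43 and -0.06, inside the cloud.

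Tbx3, the other repressor, known for roles in limb and mammary gland development and in stem cell self-renewal, was the most abundant of the 4 genes per length in every library. The NC libraries held 17.5 and 18.9 FPKM, the sh1 libraries 14.4 and 13.3, and the sh4 libraries 12.5 and 14.1, from 1527 to 1915 reads per library. Both NC libraries lay above all 4 others, while the sh1 and sh4 libraries interleaved. Group means were 18.2 ± 0.97 FPKM (NC), 13.8 ± 0.79 FPKM (sh1) and 13.3 ± 1.1 FPKM (sh4; SD, n = 2 each). The sh1 mean was 23.8% below NC and the sh4 mean 26.9% below NC, both gaps larger than the SD within any group.

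The log2(FPKM + 1) difference of Tbx3 from the shared NC libraries came to -0.37 (SE 0.07) for sh1 and to -0.43 (SE 0.07) for sh4. A shift of this size was ordinary in these data. The median absolute difference over the tested IDs was 0.36 for sh1 and 0.37 for sh4, and 48.6% and 44.8% of the IDs had a larger absolute difference than Tbx3. Among the 1248 IDs whose mean lay within 0.25 log2 units of that of Tbx3, these shares were 47.8% and 42.1%. Between sh4 and sh1 the Tbx3 difference was -0.06 (SE 0.07), with 88.0% of tested IDs differing more. Its sign turned with the scaling, to 0.02 when scaled by total reads and 0.06 when all libraries were given 1 common FPKM sum. Tbx3 stood above 77.8% to 85.8% of the IDs above 0 across the 6 libraries.

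By the call rule used for the whole table (limma, Benjamini-Hochberg adjusted p below 0.05), 65.5% of the tested IDs were called between sh1 and NC, 68.2% between sh4 and NC and 56.0% between sh4 and sh1. Of the 2 tested T-box genes, 1 was called in sh1 (Tbx3, lower), 2 in sh4 (Tbx2 higher, Tbx3 lower) and 1 between sh4 and sh1 (Tbx2 higher). Split by direction, 32.4% of tested IDs were called higher and 33.2% lower in sh1 than in NC. In sh4, 35.0% were called higher and 33.2% lower than in NC, and 29.5% higher and 26.4% lower than in sh1. The last split depended on the scaling, since calls higher in sh4 made up 52.8% of all calls between sh4 and sh1 as deposited, 62.1% with total-read scaling and 67.0% with 1 common FPKM sum. The choice of the genes used these comparisons, and nothing is read from the counts.

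The balance within the repressor pair differed between sh4 and the other groups, which restates the Tbx2 levels used in the choice. Per length, Tbx2 came to 0.400% and 0.763% of Tbx3 in the NC libraries, 0.803% and 1.18% in sh1, and 27.5% and 22.9% in sh4. The NC and sh1 shares rest on 4 to 10 Tbx2 reads per library. The sh4 libraries lay apart from the other 4 in this share, which does not depend on the scaling between libraries. The summed level of both genes was 18.3 ± 1.0 FPKM (NC), 14.0 ± 0.76 FPKM (sh1) and 16.6 ± 0.97 FPKM (sh4; SD, n = 2 each). Single libraries reached 17.5 and 19.0 in NC, 14.5 and 13.4 in sh1, and 15.9 and 17.3 in sh4, so the sums of the 3 groups did not overlap as deposited. With total-read scaling, sh4 replicate 2 (18.04 FPKM) passed NC replicate 1 (17.96 FPKM), and with 1 common FPKM sum these were 18.2 and 18.1 FPKM, so NC and sh4 overlapped under both. Both sh1 libraries stayed lowest under all 3 scalings. Tbx3 supplied most of this sum in all 6 libraries.

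Tbx4 and Tbx5, the activators, known for hindlimb and forelimb outgrowth and, for Tbx5, for heart development, were at or next to 0. Tbx4 had 1 read in sh4 replicate 2 (0.0160 FPKM) and 0 reads in the other 5 libraries. Tbx5 had 1 read in sh1 replicate 1 (0.0128 FPKM) and 0 in the other 5. In the libraries at 0, the limit of 3 reads corresponds to 0.0478 to 0.0575 FPKM for Tbx4 and 0.0347 to 0.0418 FPKM for Tbx5. Over all 6 libraries pooled, the upper bound of the exact 95% Poisson interval was 0.0160 FPKM for Tbx4 and 0.0117 FPKM for Tbx5. No fold change is given for either gene, as every group was under this limit. For a gene seen in 1 library alone, the recovery returns the smallest whole number of reads, and a multiple with a longer gene model would give the same value. Of the 54532 IDs, 52.8% were at 0 in every library and a further 4.95% were returned as 1 read over all libraries. The same rule of the recovery can overstate this 4.95%. Tbx4 and Tbx5 thus shared their state with a large part of the table.

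Within the subfamily the order of levels per length was the same in every group for Tbx3 above Tbx2, and Tbx2 above Tbx4 and Tbx5. Tbx4 and Tbx5, each at 0 or 1 read per group, held too few reads to be ranked against each other. The members of a linked pair had unlike levels. Tbx4 stayed at 0 or 1 read in the sh4 libraries, where its neighbour Tbx2 held 214 and 230 reads. Tbx3, the neighbour of Tbx5, had 1527 to 1915 reads per library, and Tbx5 0 or 1.

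Over the 6 libraries, the 2 tested IDs whose centred profile of log2(FPKM + 1) lay closest to that of Tbx2 were ENSMUSG00000023505 and ENSMUSG00000062380, with root-mean-square differences of 0.07 and 0.08. ENSMUSG00000023505 was at 3.22 ± 0.18 (NC), 3.51 ± 0.20 (sh1) and 14.7 ± 0.13 FPKM (sh4). ENSMUSG00000062380 was at 2.69 ± 0.54, 2.86 ± 0.22 and 13.5 ± 0.45 FPKM in the same order. Both were well above the detection limit in NC and sh1, where Tbx2 was not, so the same difference in log2(FPKM + 1) stands for a smaller ratio of FPKM than in Tbx2. Closest to Tbx3 were ENSMUSG00000073888 and ENSMUSG00000031986, each at a root-mean-square difference of 0.03. ENSMUSG00000073888 was at 3.99 ± 0.29 (NC), 2.74 ± 0.29 (sh1) and 2.69 ± 0.19 FPKM (sh4). ENSMUSG00000031986 was at 8.21 ± 0.49, 6.14 ± 0.08 and 6.0 ± 0.40 FPKM in that order (SD, n = 2 each). These IDs were picked for their likeness over the same libraries and carry no symbol here.

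**Figure D3:**
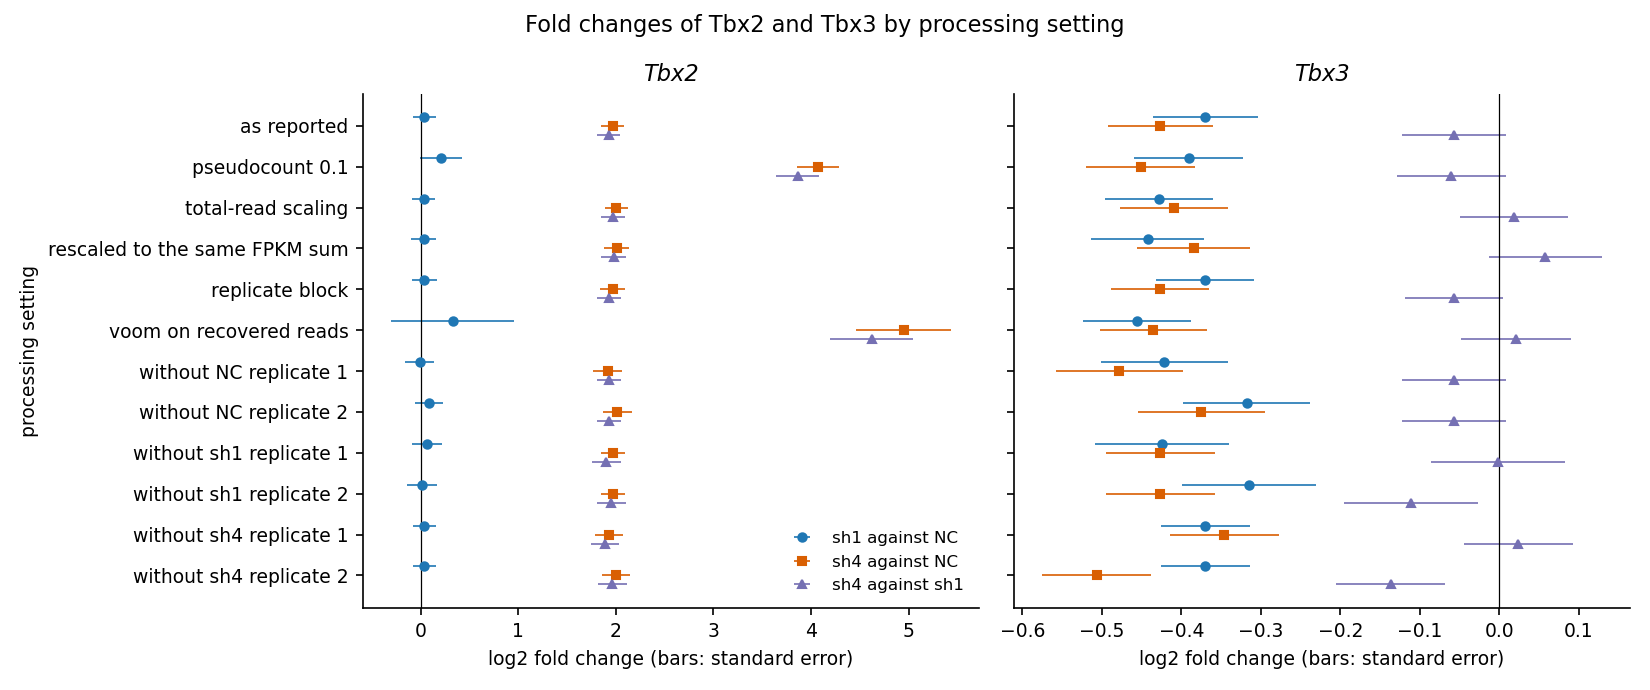
Log2 fold changes of Tbx2 (left) and Tbx3 (right; horizontal axis, with standard errors as bars) under each processing setting (vertical axis) with circles for sh1 against NC, squares for sh4 against NC and triangles for sh4 against sh1. The Tbx2 rise in sh4 is 1.89 or more in every setting, 4.07 with a pseudocount of 0.1 against NC and 4.95 by voom on the recovered reads, whereas Tbx3 stays between -0.51 and -0.32 against NC.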

How the data were processed

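The authors deposited 1 file for each of the 6 libraries, with an FPKM value for every gene ID. HISAT2 2.0.5 and build hg18 are named, per the submitters' processing notes. This is a human build, whereas all 54532 IDs carry the mouse prefix, so the build behind the values is not known here. The read counter is not given in the sources used here, nor are annotation and filters. Whole reads and gene lengths were recovered from the whole-number steps of the FPKM values, and rebuilt all values of 25747 of the 25747 IDs above 0 to within 1e-06 FPKM plus a relative 1e-07. On simulated reads, 99.3% of IDs with at least 60 reads were recovered exactly. The denominators matched size factors of the median-of-ratios kind, so the deposited values are already scaled between libraries.

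Python 3.11.15 and R 4.3.3 were used. Because the files hold FPKM, limma 3.58.1 was fitted to log2(FPKM + 1) of the 12755 IDs that reached 1 FPKM in 2 or more libraries. The fit took all 6 libraries (3 residual degrees of freedom), with a robust empirical Bayes variance trended on mean recovered reads. On simulated reads for the 12755 IDs, 200 of them changed by 1 log2 unit in sh1 and sh4, this fit called 168 changed and 6 unchanged IDs between NC and sh1, 171 and 4 between NC and sh4, and 0 between sh4 and sh1, where none differed. The simulation gave all IDs the same spread beyond counting error. It also changed a far smaller share of IDs than the 65.5%, 68.2% and 56.0% called in the data. Its few calls of unchanged IDs therefore do not carry over to these libraries. Calls are at a Benjamini-Hochberg adjusted p below 0.05 within each of 3 comparisons. Alternatives changed the pseudocount, filter, scaling, block, model or libraries.

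The genes and lists were chosen with earlier results of these data known. Named are the 4 T-box genes and, for those with a mean of 1 FPKM or more, the 2 most similar IDs. Of 169 symbols in 12 planned lists, 0 matched an ID, so no list was analysed. No sequence is printed, since the sequence tables used here are human.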

Additional observations from a re-analysis of the deposited data

Results flagged for a closer look

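The change of Tbx2 relative to NC was not the same in both sh groups. It was larger in sh4 than in sh1 by 1.93 log2 units in limma's direct comparison of the 2 groups, with both sh4 libraries above both sh1 libraries. Tbx2 was chosen with this difference known and entered the tested set through sh4 alone, so the call is not independent evidence.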

How the results depend on the processing

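Of 66 alternative values for the Tbx2 and Tbx3 fold changes, 60 moved by less than the spread between replicates and 6 by more. Leaving out 1 of 2 replicates shifts a group mean by less than their SD, and the replicate block shifted no fold change. Values from these settings had to fall among the 60, so the tally says little about stability. The 6 were all for Tbx2. With a pseudocount of 0.1 its log2 fold change was 0.21 from NC to sh1, 4.07 from NC to sh4 and 3.86 from sh1 to sh4. By voom on the recovered reads, chosen after seeing the data, these were 0.33, 4.95 and 4.62. A smaller or no constant on FPKM enlarges the fold of a low gene by construction. When single libraries were left out, Tbx2 ranged over -0.01 to 0.09, 1.92 to 2.01 and 1.89 to 1.97 in the same order. For Tbx3 the ranges were -0.42 to -0.32, -0.51 to -0.35 and -0.14 to 0.02, the last turning sign without sh4 replicate 1, as it did by voom (0.02). The Tbx2 difference between sh1 and NC turned sign without NC replicate 1. A fit without 1 library assumes that the lone library varies like the other groups. Without NC replicate 2 the ratio of mean Tbx2 FPKM was 47.6 for sh4 and 1.95 for sh1 against NC, in place of 31.1 and 1.27. Total counts of calls stayed within 1.5 times under every alternative run. Without the filter they were 8199 for sh1, 8535 for sh4 and 6324 between sh4 and sh1, but out of 25747 IDs. The called share of IDs was thus lower there than among the 12755 filtered IDs. The share of higher calls moved with the scaling. With 1 common FPKM sum it went from 49.4% to 42.9% for sh1 and from 51.3% to 55.0% for sh4 against NC. The totals ran without 1 library from 7286 to 8412 for sh1, 7845 to 8451 for sh4 and 5782 to 7171 between sh4 and sh1. With the replicate block they were 8508, 8836 and 7345, and no Tbx2 or Tbx3 call changed. Deviations of same-numbered libraries correlated at -0.01 (NC and sh1), 0.12 (NC and sh4) and -0.02 (sh1 and sh4), and the labels tie the numbers to no culture, batch or day, so whether they pair libraries is not known. Depth limits Tbx2 in NC and sh1 and both Tbx4 and Tbx5 throughout. Alternatives planned for the gene lists were not run, as no list matched.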
